A study of Rattus norvegicus with 6 samples.

Results

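The genes described here are the oxygen-sensitive subunits of the hypoxia-inducible factors (HIF), the hydroxylases that sense oxygen for them, and genes that HIF is known to induce. The group was listed by name, with no cut on measured values but with earlier results of these data known: Hif1a, Epas1, Egln1, Egln3, Ndrg1, Ddit4, Adm, Bnip3l, Bhlhe40 and Ankrd37. Of these 10 genes, 9 had a probe on the array, among 13876 named genes measured, and Egln1 had none. The 6 arrays came from heart muscle of male Wistar rats whose age was not given in the sources used here. An infarct was made in 3 of the rats by tying off the left anterior descending (LAD) coronary artery, and after 6 h its border zone was delimited by a double stain with TTC and EB and taken for RNA (arrays M17, M24, M25). Sham surgery was done on the remaining 3 (arrays C4, C5, C6). The labels name no further treatment or allele in either group. Sample titles call the sham tissue only a control zone of the myocardium at 6 h. Its position in the heart relative to the border zone is thus not known. The border zone is tissue next to the infarct, sampled in bulk at 1 time, and a lower signal from fewer cells of a type cannot be told apart from less RNA per cell.

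HIF is a pair of proteins, an alpha subunit and the constant partner ARNT. When oxygen is present, prolyl hydroxylases encoded by the Egln genes modify the alpha subunit, the VHL protein binds it, and it is degraded. When oxygen is short the alpha subunit persists, enters the nucleus and binds DNA at sites with the core ACGTG or GCGTG, called hypoxia response elements. In ischaemic heart muscle this pathway is known for shifting metabolism toward glycolysis and for inducing vascular and mitophagy genes. Because the alpha subunits are controlled mainly as proteins, arrays of mRNA measure the genes of the pathway and not the amount of HIF protein.

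The stretches of promoter below show where the listed genes hold the core of a hypoxia response element close to their start, which only some of them do. They are RefSeq sequences of the GRCr8 assembly, 5′ to 3′ on the strand of the gene, from within the 250 bases before the gene's start, with each match of ACGTG or of its reverse complement CACGT in capitals. CACGTG, the core of the E-box bound by BHLHE40 and related factors, reads as ACGTG on both strands and is counted as 2 matches. Promoters of 8 of the 10 genes were available, and those of Ndrg1 and Bnip3l were not among them.
Hif1a, chr6:98359648-98359699, plus strand: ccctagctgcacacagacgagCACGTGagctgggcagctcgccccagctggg
Hif1a, chr6:98359709-98359763, plus strand: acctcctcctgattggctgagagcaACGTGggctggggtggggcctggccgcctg
Ddit4, chr20:28437146-28437200, minus strand: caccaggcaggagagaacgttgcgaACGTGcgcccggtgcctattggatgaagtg
Bhlhe40, chr4:143174205-143174260, plus strand: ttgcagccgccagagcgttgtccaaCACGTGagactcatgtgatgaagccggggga
Bhlhe40, chr4:143174276-143174355, plus strand: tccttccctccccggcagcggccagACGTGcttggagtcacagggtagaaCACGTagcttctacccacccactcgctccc
Ankrd37, chr16:53001257-53001300, plus strand: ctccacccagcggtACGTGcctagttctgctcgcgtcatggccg
Ankrd37, chr16:53001459-53001506, plus strand: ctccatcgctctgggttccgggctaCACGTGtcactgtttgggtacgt

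Searched on both strands, ACGTG was found in 4 of the 8 promoters, those of Hif1a, Ddit4, Bhlhe40 and Ankrd37, and in 16.6% of the 33469 rat promoters of the same length. GCGTG was found in 3 of the 8, those of Egln1, Ddit4 and Ankrd37, and in 25.9% of all promoters. CACGTG was found in 3 of the 8, those of Hif1a, Bhlhe40 and Ankrd37, and in 5.59% of all promoters. Bhlhe40 itself encodes a repressor that binds such an E-box. In Ankrd37 the CACGTG lay 23 bases before the start. Neither core occurred in the windows of Epas1, Egln3 and Adm. The G and C content of the 8 windows ranged from 46.8% in Egln3 to 85.2% in Egln1, against a median of 51.2% over all promoters, and both cores are rich in these bases. A match describes these letters only and is not a measured binding site.

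Levels below are log2 processed signals minus the 75th percentile of their array, and levels of different genes are not compared. Each of the 9 genes had 1 probe, and on every array that probe was well above background. Of 17930 probes tested, 19.3% passed an adjusted p of 0.05 in either direction (limma with Benjamini-Hochberg adjustment), 9.01% higher and 10.3% lower in the border zone. Scaling each array to its median in place of its 75th percentile moved the share of these calls that were higher to 67.6%, against 46.7%. Array M25 lay between M17 and M24 for 97.6% of the 572 probes with a gap of over 2-fold between M17 and M24, against 70.5% of all probes tested, so whether it is a separate animal is in doubt. All 9 markers of central neurons and glia that were well above background on every array were higher on C5 and C6 than on the others, and those arrays had 51.0% and 52.4% of probes well above background, against 73.7% to 78.3% on the others. M17, M24, M25 and C4 were scanned together, and C5 and C6 each in another scan, so values against C4 alone are given too. That comparison holds no sham replicate, its p-values rest on the spread among M17, M24 and M25 only, and 15.9% of probes passed in it. Without M25, 2.84% of probes passed. All 13 measured cardiomyocyte markers were well above background on every array, and none passed the test.

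In the border zone 5 of the 9 genes rose (Ndrg1, Bhlhe40, Ankrd37, Epas1 and Ddit4), Bnip3l fell, and Hif1a, Egln3 and Adm did not pass. Of all probes tested, 9.01% were called higher and 10.3% lower. The largest rise was that of Ndrg1, at 2.97-fold. The median log2 fold change of the 9 genes was 0.48, against -0.03 over all probes tested, and their median absolute change was 0.496, against 0.374. For 8 of the 9 genes the 3 border-zone arrays did not overlap the 3 sham arrays, which held for 43.7% of all probes tested. With median scaling the 5 rises still passed and the fall of Bnip3l did not. Under normexp, another background correction, 2 of the 9 genes passed, as did 2562 of the 17930 probes tested. With no filter on dim probes 3 of the 9 passed, as did 1826 of 24614 probes. In the main fit 3460 probes passed. Against C4 alone, with that spread, 5 genes passed, 4 of them higher and 1 lower. Without M25 only Ndrg1 passed, with 2.84% of all probes tested. M25 lay between M17 and M24 for 8 of the 9 genes and for 70.5% of all probes tested.

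**Figure D1:**
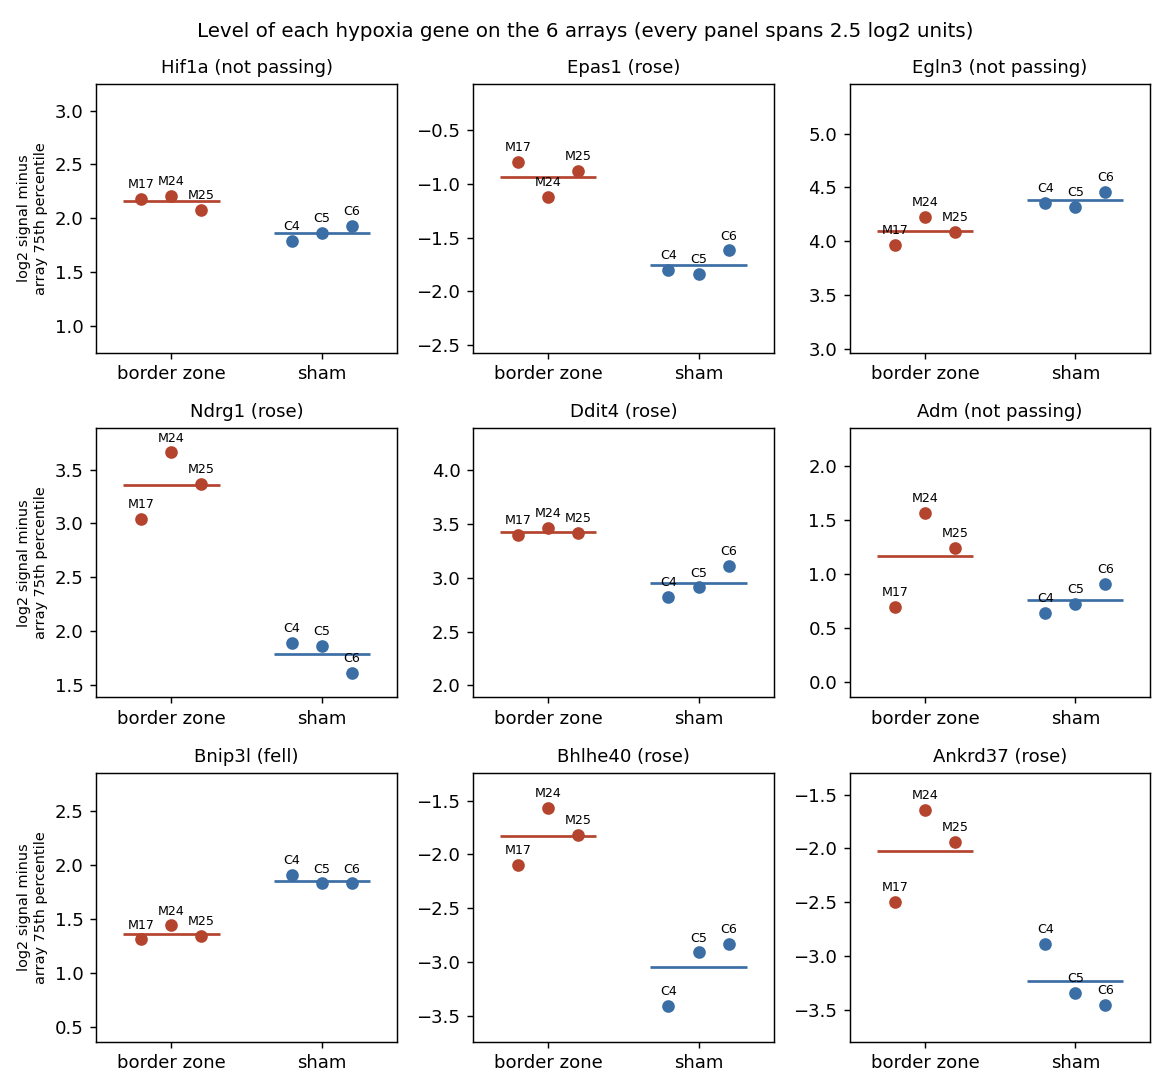
Level of each of the 9 genes on every array, as log2 signal minus the array's 75th percentile, with border-zone arrays left of sham arrays. Points are arrays, horizontal lines are group means, and every panel spans the same range on the log2 scale. Only Adm has overlapping groups, its M17 value of 0.69 lying among the sham values.

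Of the alpha subunits, Epas1 rose and Hif1a did not pass. Epas1 encodes HIF-2 alpha, the subunit known for its high expression in vascular endothelium. Its level was -0.80, -1.12 and -0.88 on M17, M24 and M25, against -1.80, -1.84 and -1.62 on C4, C5 and C6. Every border-zone array was above every sham array, by at least 0.50. The border-zone mean was -0.93 ± 0.16 and the sham mean -1.75 ± 0.12 (SD, n = 3 arrays each). The log2 fold change was 0.82 ± 0.14 (SE; 95% interval 0.48 to 1.15; 1.76-fold), with a limma adjusted p of 0.0145. It was 0.86 against C4 alone (limma adjusted p = 0.0449) and 0.79 without M25 (limma adjusted p = 0.0987). The call was also lost without M17 (limma adjusted p = 0.0556) or without C5 (0.0548). Of 6 measured endothelial markers none rose and 2 fell, Emcn (-0.95) and Cldn5 (-0.71), while 11.9% of all genes tested fell. Of the 4 that did not pass, 2 had a log2 fold change above 0. The call of Emcn was lost without M17, M25, C5 or C6 (limma adjusted p up to 0.107). That of Cldn5 was lost without M17, M24 or M25 (up to 0.11), with median scaling (0.0863) and with normexp (0.0518). The signal of the 6 was summed in units of the array's 75th percentile. It was 31.1 to 36.4 in the border zone, against 35.3 to 40.8 in sham. The part of endothelial cells in the level of Epas1 was not tested.

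Hif1a encodes HIF-1 alpha, the subunit present in most cells. Its level was 2.18, 2.21 and 2.08 on M17, M24 and M25, against 1.79, 1.86 and 1.93 on C4, C5 and C6. The groups did not overlap, and the lowest border-zone array was 0.15 above the highest sham array. Group means were 2.16 ± 0.07 in the border zone and 1.86 ± 0.07 in sham (SD, n = 3 arrays each). The log2 fold change of 0.29 ± 0.11 (SE; 95% interval 0.03 to 0.56) had a limma adjusted p of 0.105, and 0.0942 against C4 alone. It passed only when probes were restricted to those well above background on all 6 arrays (limma adjusted p = 0.0488). Relative to the sham mean, the log2 ratio of Epas1 to Hif1a was 0.63, 0.29 and 0.66 in the border zone, against 0.02, -0.09 and 0.07 in sham. The mean difference was 0.52, but only 0.15 under another background correction, normexp. It is 1 of 3 gene pairs set side by side after their values were seen, and is given with no test.

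Egln3 encodes PHD3, a prolyl hydroxylase that marks HIF alpha subunits and is itself a HIF target in many cells. Its level was 3.97, 4.23 and 4.09 on M17, M24 and M25, against 4.36, 4.32 and 4.46 on C4, C5 and C6. All border-zone arrays were below all sham arrays, with a gap of 0.09. On average the level was 4.10 ± 0.13 in the border zone and 4.38 ± 0.07 in sham (SD, n = 3 arrays each), and the log2 fold change of -0.28 ± 0.12 (SE; 95% interval -0.58 to 0.01) did not pass (limma adjusted p = 0.149). Against C4 alone it was -0.26. Measured against the median of all probes, its direction turned under normexp, where it was 0.06. Egln2, the gene of the related hydroxylase PHD1, had a log2 fold change of 0.27 ± 0.12 and did not pass either (limma adjusted p = 0.163). The log2 ratio of Egln2 to Egln3 relative to the sham mean was 0.81, 0.31 and 0.54 in the border zone, against 0.05, 0.12 and -0.18 in sham. The mean difference was 0.55, and 0.72 under normexp. This pair too was set side by side after its values were seen, and is given with no test. Egln1, the gene of the main HIF prolyl hydroxylase PHD2, was not analysed here.

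Ndrg1, a hypoxia-induced gene linked to stress responses and differentiation, had the largest change of the group. Its level was 3.04, 3.66 and 3.37 on M17, M24 and M25, against 1.89, 1.86 and 1.61 on C4, C5 and C6. The lowest border-zone array was 1.15 above the highest sham array. The border-zone mean was 3.36 ± 0.31 and the sham mean 1.79 ± 0.16 (SD, n = 3 arrays each). The log2 fold change was 1.57 ± 0.19 (SE; 95% interval 1.1 to 2.04), with a limma adjusted p of 0.00609, and its size exceeded that of 94.5% of the probes tested. It was 1.47 against C4 alone (limma adjusted p = 0.044) and 1.56 without M25 (limma adjusted p = 0.0488). It was the only gene of the 9 to pass with each of the 6 arrays left out in turn, although the background reading beside its spot was marked as an outlier on 2 arrays. Egln3, Ddit4 and Bhlhe40 each had such a mark on 1 array.

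Bhlhe40 and Ankrd37 rose by similar amounts from low signals. Bhlhe40 encodes a transcriptional repressor of the basic helix-loop-helix family that responds to hypoxia and to the circadian clock. Its level was -2.10, -1.57 and -1.82 on M17, M24 and M25, against -3.41, -2.91 and -2.83 on C4, C5 and C6. The groups were separated by 0.73. Group means were -1.83 ± 0.27 in the border zone and -3.05 ± 0.31 in sham (SD, n = 3 arrays each), and the log2 fold change was 1.22 ± 0.22 (SE; 95% interval 0.68 to 1.76; 2.33-fold; limma adjusted p = 0.0176). It was 1.58 against C4 alone (limma adjusted p = 0.0318). The call was lost without M24 (limma adjusted p = 0.0672), M25 (0.094) or C5 (0.0508). Its paralogue Bhlhe41 had no measured probe.

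Ankrd37 encodes a small ankyrin-repeat protein and is a HIF target in human cells. Its level was -2.50, -1.64 and -1.94 on M17, M24 and M25, against -2.89, -3.34 and -3.45 on C4, C5 and C6. The groups were separated by 0.40, between M17 and C4. On average the level was -2.03 ± 0.44 in the border zone and -3.23 ± 0.29 in sham (SD, n = 3 arrays each). The log2 fold change was 1.20 ± 0.27 (SE; 95% interval 0.55 to 1.86; 2.30-fold; limma adjusted p = 0.0314). Against C4 alone it was 0.87 and did not pass (limma adjusted p = 0.182). The call was also lost without M24 (limma adjusted p = 0.0974), M25 (0.133), C5 (0.0964) or C6 (0.0768).
Under normexp the log2 fold change of Bhlhe40 was 0.51 (limma adjusted p = 0.162) and that of Ankrd37 0.53 (limma adjusted p = 0.0971), both over 1.5 times smaller. With no filter on dim probes the call of Ankrd37 was lost as well (limma adjusted p = 0.0654). Normexp also moved the median of all probes to -0.335, and relative to that median the changes were 0.84 for Bhlhe40 and 0.86 for Ankrd37. Epas1 under normexp was 0.53 (limma adjusted p = 0.0721), or 0.87 relative to the median.

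Ddit4 encodes REDD1, an inhibitor of the growth-promoting kinase complex mTORC1. Its level was 3.40, 3.46 and 3.42 on M17, M24 and M25, against 2.82, 2.91 and 3.11 on C4, C5 and C6. Its border-zone values were the closest together of the 9 genes and lay at least 0.30 above the sham values. Group means were 3.43 ± 0.03 in the border zone and 2.94 ± 0.15 in sham (SD, n = 3 arrays each). The log2 fold change was 0.48 ± 0.12 (SE; 95% interval 0.19 to 0.78; 1.40-fold), with a limma adjusted p of 0.0418, and it was 0.61 against C4 alone (limma adjusted p = 0.0327). The call was lost without any 1 of M17 (limma adjusted p = 0.110), M24 (0.139), M25 (0.181) or C5 (0.115). It was also lost with quantile normalization (log2 fold change 0.38, limma adjusted p = 0.0740), in the authors' table (0.0712) and with no filter on dim probes (0.0885).

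Adm encodes adrenomedullin, a vasodilator peptide, and was the only gene whose groups overlapped. Its level was 0.69, 1.57 and 1.24 on M17, M24 and M25, against 0.64, 0.72 and 0.91 on C4, C5 and C6. M17 lay within the sham range, and the other border-zone arrays lay above it. The border-zone mean was 1.16 ± 0.44 and the sham mean 0.76 ± 0.14 (SD, n = 3 arrays each), and the log2 fold change of 0.41 ± 0.24 (SE; 95% interval -0.18 to 1.00) had a limma adjusted p of 0.274. It was 0.52 against C4 alone, 0.64 without M17 and 0.21 without M24, and passed in neither. Of the genes of its receptor, Ramp3 rose (0.97 ± 0.15, limma adjusted p = 0.0118; 1.19 against C4 alone), a call lost without M25 (0.0832) and under normexp (0.0715), while Calcrl (-0.18) and Ramp2 (-0.54) did not pass.

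Bnip3l was the only gene of the 9 that fell. It encodes NIX, a mitophagy receptor of the outer mitochondrial membrane. Its level was 1.31, 1.44 and 1.34 on M17, M24 and M25, against 1.91, 1.83 and 1.83 on C4, C5 and C6. All border-zone arrays were below all sham arrays, by at least 0.39. On average the level was 1.36 ± 0.07 in the border zone and 1.86 ± 0.05 in sham (SD, n = 3 arrays each). The log2 fold change was -0.50 ± 0.10 (SE; 95% interval -0.75 to -0.24; 1.41-fold lower), with a limma adjusted p of 0.027, and it was -0.55 against C4 alone (limma adjusted p = 0.0464). The fall did not pass with median scaling (-0.31, limma adjusted p = 0.228) or normexp (-0.42, limma adjusted p = 0.0637), and under normexp it was -0.09 relative to the median of all probes. It was also lost without M17 (limma adjusted p = 0.0891), M24 (0.0799), M25 (0.158) or C5 (0.0770), and with no filter on dim probes (0.0661).

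NIX is known for clearing mitochondria from maturing red cells, and Bnip3l is abundant in those cells. The summed signal of 10 red cell markers was 124, 14.1 and 91.9 on M17, M24 and M25, against 132, 112 and 142 on C4, C5 and C6, in units of the array's 75th percentile. The part of red cells in the level of Bnip3l was not tested. Bnip3, the gene of the related mitophagy receptor and a HIF target, rose (0.57 ± 0.12, limma adjusted p = 0.0293; 0.71 against C4 alone), a call lost without M17, M24, M25 or C5 (limma adjusted p up to 0.149). The log2 ratio of Bnip3 to Bnip3l relative to the sham mean was 1.03, 1.07 and 1.1 in the border zone, against -0.19, 0.01 and 0.18 in sham. The mean difference was 1.07, and 1.09 under normexp. The pair Bnip3 and Bnip3l was also set side by side after its values were seen, and is given with no test.

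**Figure D2:**
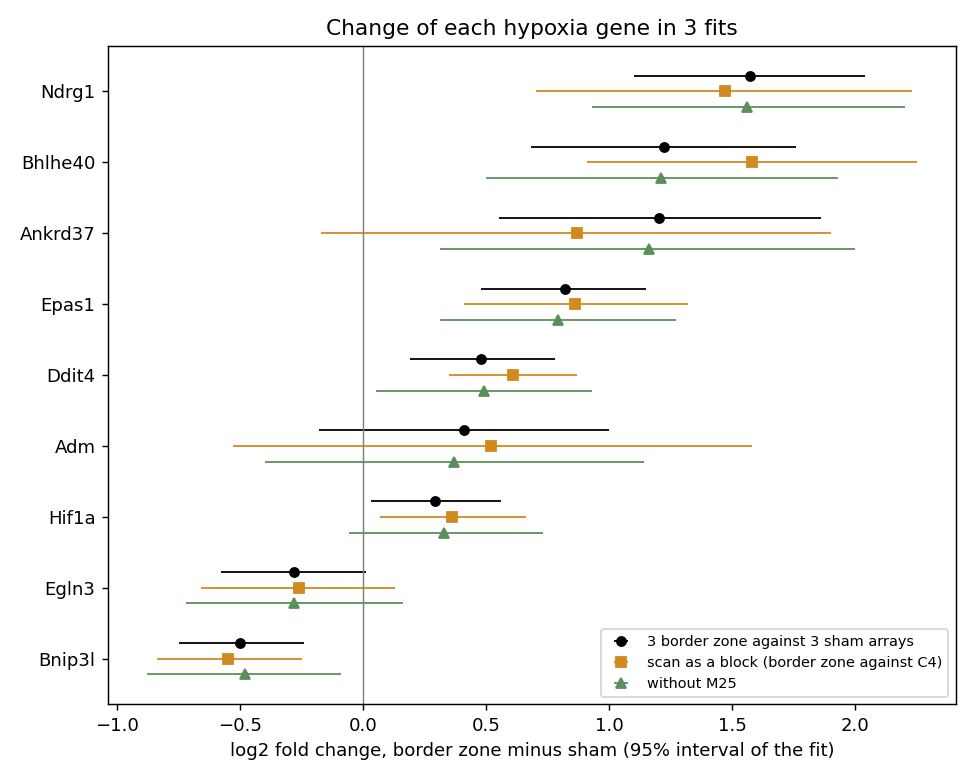
Log2 fold change of the border zone over sham for each of the 9 genes on the horizontal axis, over all arrays, against C4 alone (scan as a block) and without M25, each with its 95% interval from limma. Over all arrays Ndrg1 lies farthest to the right at 1.57, and Bnip3l and Egln3 lie below 0.

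Among the border-zone arrays the genes also differed from each other. M24 exceeded M17 for 8 of the 9 genes, Epas1 being the exception, and for 45.7% of all probes tested. The difference was largest for Adm, Ankrd37 and Ndrg1. The median SD of the 9 genes was 0.16 in the border zone and 0.14 in sham, against medians of 0.12 and 0.27 over all probes tested. The median sham SD of these genes was thus close to their median border-zone SD, unlike that over all probes. Single genes differed, with Adm at 0.44 in the border zone and 0.14 in sham, and Ddit4 at 0.03 and 0.15. All 9 genes were well above background on every array, which held for 11936 of the 17930 probes tested.

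Markers of infiltrating cells moved with the groups. Summed signals of 9 neutrophil markers were 5.81 to 6.87 in the border zone, against 0.309 to 0.578 in sham. Of the 8 tested, 6 were not well above background on all sham arrays and entered the test through the border zone, where they were high. The other 2, S100a8 and Lcn2, rose, also under normexp, where none of those 6 passed. Without M25 the call of Lcn2 was lost (limma adjusted p = 0.0626), while S100a8 passed with each array left out in turn. Pglyrp1, Mmp8 and Fpr1 were on no sham array well above background. Of the 8 tested monocyte and macrophage markers that were well above background on all sham arrays, 4 rose and 1 fell. The sums of all 12 measured were 82.9 to 86.2 in the border zone, against 43.4 to 50.8 in sham. The sums of 6 fibroblast markers were 67.2 to 79.4 in the border zone, against 96.2 to 124 in sham. Col3a1 (-1.84) and Col1a2 (-1.02) fell, and Tcf21 rose (1.84, limma adjusted p = 0.00157). The call of Col3a1 was lost without M25 (limma adjusted p = 0.0763). That of Col1a2 was lost without M24, M25 or C5 (up to 0.12) and with median scaling (0.0702). The sums of 8 smooth muscle and pericyte markers were 17.6 to 20.7 in the border zone, against 25.4 to 27.0 in sham. Abcc9 (-1.02) and Tagln (-0.55) fell, and Cspg4 rose (0.89). The calls of Tagln and Cspg4 were lost with any array but C4 left out (limma adjusted p up to 0.175 and 0.15). That of Tagln was also lost with median scaling (0.132) and normexp (0.07), and that of Abcc9 without M25 (0.0665). Against C4 alone Tagln had -0.35, Cspg4 0.41 and Abcc9 -0.87. The sums of 13 cardiomyocyte markers were 795 to 856 in the border zone, against 827 to 1050 in sham. Central neuron and glia sums were 0.795 to 1.13 in the border zone, against 0.808 on C4, 7.91 on C5 and 9.66 on C6. Schwann cell sums were 7.07 to 9.76 in the border zone, against 9.35 on C4, 20.2 on C5 and 23.4 on C6. The part of these cells in the levels of the 9 genes was not tested.

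**Figure D3:**
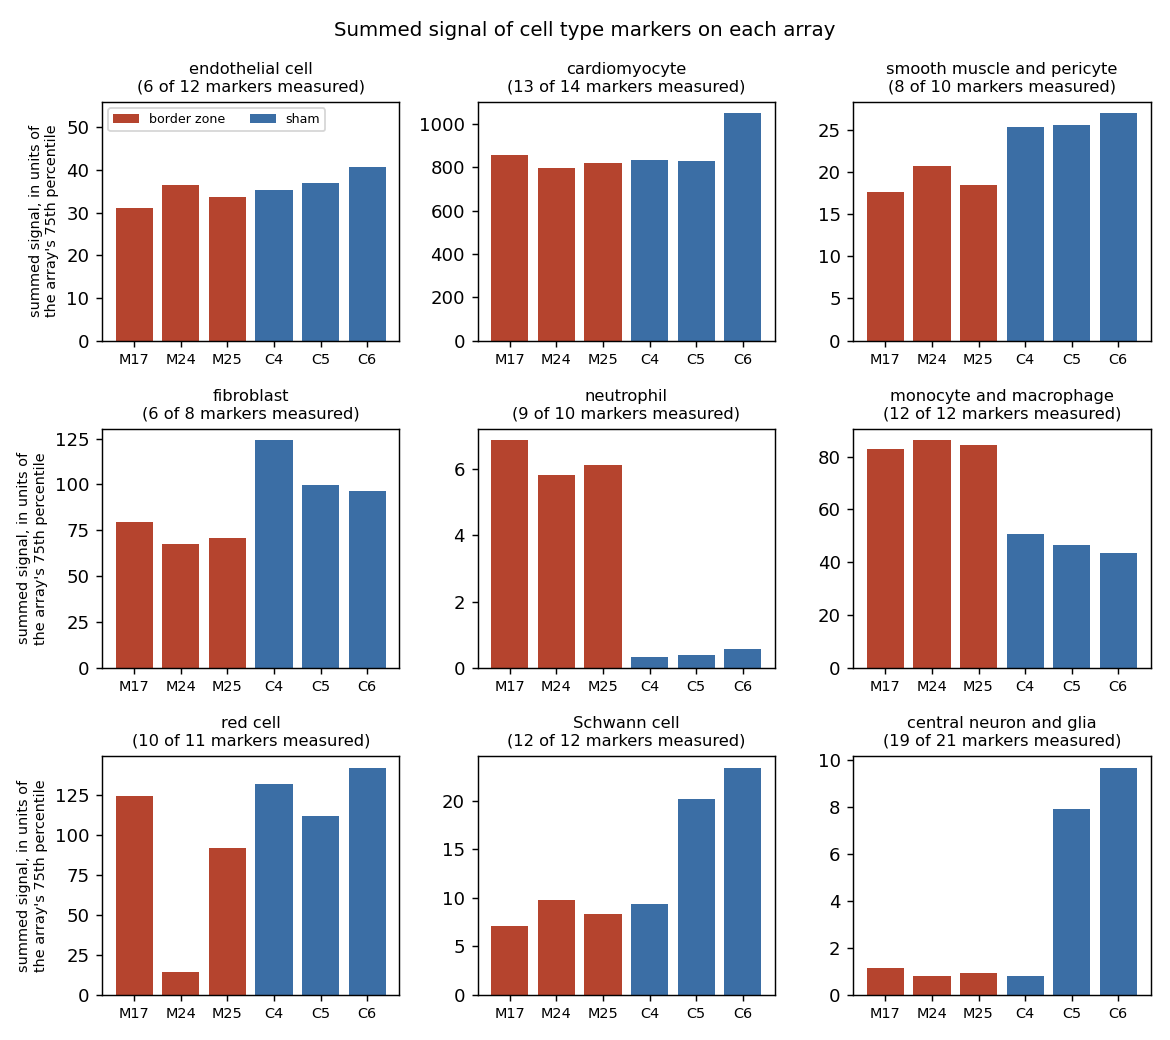
Summed signal of the marker list of each cell type on every array, in units of the array's 75th percentile, with border-zone arrays left of sham arrays and 1 panel per list, each with its own axis from 0. Neutrophil sums are high on all 3 border-zone arrays, and the nervous tissue markers are high on C5 and C6.

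The rest of the pathway was taken from lists of known HIF regulators and targets. Among all 11001 genes tested, 9.9% rose and 11.9% fell. Of 12 other subunits and regulators, 2 rose, 1 fell and 9 did not pass, with a median log2 fold change of 0.26. Cited2, which competes with HIF alpha for its coactivator, rose by 1.02 ± 0.17 (limma adjusted p = 0.0134; 1.31 against C4 alone), a call lost without M17, M24 or M25 (limma adjusted p up to 0.0838). Vhl, the gene of the protein that binds hydroxylated HIF alpha, rose by 0.47 ± 0.13 (limma adjusted p = 0.0492), a call that passed neither against C4 alone (0.31, limma adjusted p = 0.129) nor without M17, M24, M25, C5 or C6 (up to 0.197). Arnt, the gene of the constant partner, had 0.25 ± 0.17 (limma adjusted p = 0.318), and -0.04 against C4 alone. Without M25 no gene of this list passed limma's test, and 3 had an unadjusted p below 0.05.

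Arnt2, a partner related to ARNT that is known from neurons, was on no border-zone array well above background. Its mean level there was below that of the sham arrays (log2 fold change -4.37 ± 1.01, 20.7-fold, limma adjusted p = 0.0345). The call of Arnt2 was lost with any array but C4 left out (limma adjusted p up to 0.128). The sham levels of Arnt2 were -4.89 on C4, -1.33 on C5 and -1.15 on C6, high on the arrays where nervous tissue markers were high. Its log2 fold change was smaller in size against C4 alone, at -1.94, and under normexp, at -1.99 (limma adjusted p = 0.0648). Hif1an, the gene of the asparaginyl hydroxylase FIH, had 0.83 ± 0.37 (limma adjusted p = 0.164), and Hif3a, the gene of the third alpha subunit, had -0.16 ± 0.39 (limma adjusted p = 0.796). Neither passed, and each was well above background on 1 sham array. Against C4 alone Hif1an had 0.04 and Hif3a 0.16, and under normexp they had -0.39 and -0.68.

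Of 22 glycolytic genes, 3 rose (13.6%, against 9.9% of all genes), 1 fell and 18 did not pass, with a median log2 fold change of -0.10. Slc16a3, the gene of the lactate exporter MCT4, rose by 2.42 ± 0.23 (limma adjusted p = 0.0032; 2.69 against C4 alone) and passed with each array left out in turn. Slc2a1, the gene of the glucose transporter GLUT1, rose by 1.88 ± 0.28 (limma adjusted p = 0.0103; 2.22 against C4 alone). Hexokinase 2, Hk2, rose by 0.76 ± 0.14 (limma adjusted p = 0.0203; 1.01 against C4 alone). Without M25 the call of Slc2a1 was lost (limma adjusted p = 0.0644), and that of Hk2 was lost without M17, M24, M25 or C5 (up to 0.113). Ppp1r3c, which directs a phosphatase to glycogen, fell by 0.65 on the log2 scale (limma adjusted p = 0.0161), a call lost without the same arrays as that of Hk2 (up to 0.111) and with median scaling (0.0673). Against C4 alone it was -0.53. Ldha (0.12 ± 0.15, limma adjusted p = 0.578) and Pdk1 (0.03 ± 0.11, limma adjusted p = 0.849) did not pass, and had -0.09 and 0.05 against C4 alone.

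Of 18 tested genes for secreted and vascular products, 7 rose (38.9%, against 9.9% of all genes), 3 fell and 8 did not pass. Their median log2 fold change was 0.46, and 0.32 against C4 alone. Of the 18, 5 were not well above background on all sham arrays and entered the test through the border zone. Among the other 13, 5 rose and 3 fell. Under normexp 5 genes of the whole list rose and 3 fell. Angptl4, an inhibitor of lipoprotein lipase, rose by 5.75 ± 0.44 (limma adjusted p = 0.00197; 5.96 against C4 alone). Pgf, placental growth factor, rose by 2.85 ± 0.44 (limma adjusted p = 0.0114; 3.52 against C4 alone). The genes that fell were Apln (-1.46 ± 0.24, limma adjusted p = 0.0138), Vegfa (-0.81 ± 0.17, limma adjusted p = 0.0284) and Cxcl12 (-0.61 ± 0.12, limma adjusted p = 0.0233). Vegfa is the best known angiogenic HIF target, and its level was 4.75, 4.48 and 4.58 in the border zone, against 5.10, 5.52 and 5.6 in sham. Against C4 alone Vegfa (-0.50, limma adjusted p = 0.0924) and Cxcl12 (-0.45, 0.0671) did not pass, and Apln had -1.75. The calls of Vegfa and Cxcl12 were lost with any array but C4 left out (limma adjusted p up to 0.132 and 0.137) and with median scaling (0.0544 and 0.104). Those of Pgf (0.0664) and Apln (0.0773) were lost without M25. Epo was on no array well above background.

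Of 17 tested genes for intracellular products, 6 rose (35.3%, against 9.9% of all genes), 2 fell and 9 did not pass. Their median log2 fold change was 0.40, which was 0.14 against C4 alone. Of the 17, 4 were not well above background on all sham arrays and entered the test through the border zone. Among the other 13, 5 rose and 2 fell. Hmox1, heme oxygenase 1, rose by 3.78 ± 0.17 (limma adjusted p = 0.000649; 4.09 against C4 alone), Maff, a small Maf transcription factor, by 1.65 ± 0.26 (limma adjusted p = 0.0128), and Errfi1, a feedback inhibitor of the EGF receptor, by 1.51 ± 0.33 (limma adjusted p = 0.0305). The value of Maff was -0.05 under normexp, it was well above background on 1 of the 3 sham arrays, and its call was lost without M17 or M25 (limma adjusted p up to 0.0728). That of Errfi1 was lost without M24, M25 or C5 (up to 0.125) and against C4 alone (0.0644). Vldlr, a lipoprotein receptor, fell (-0.84 ± 0.15, limma adjusted p = 0.0189), as did Ets1, a transcription factor (-0.65 ± 0.15, limma adjusted p = 0.0355). Both falls were lost with median scaling (limma adjusted p = 0.0833 and 0.173) and without M24, M25 or C5 (up to 0.106 and 0.151), that of Ets1 also without M17 or C6. Against C4 alone Vldlr had -0.98, and Ets1 had -0.70 and did not pass (limma adjusted p = 0.0909). Car9 was on no array well above background.

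**Figure D4:**
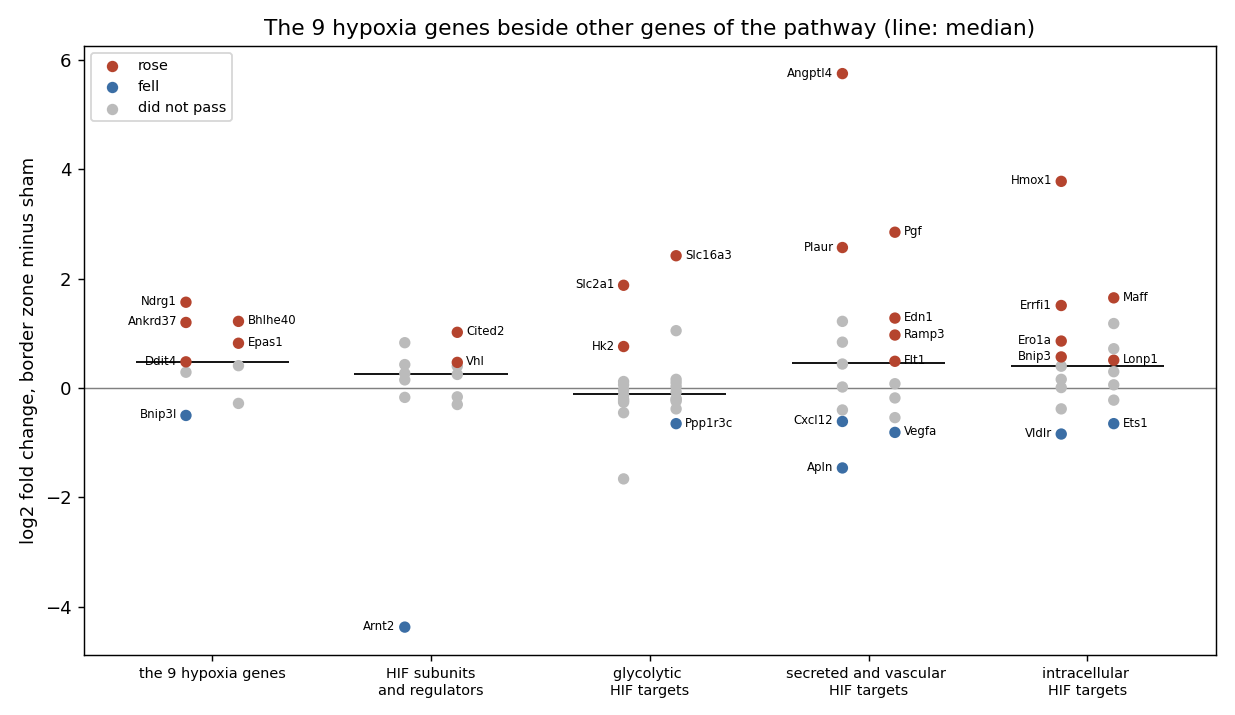
Log2 fold change of the border zone over sham for the reported genes among the 9 listed genes and the 4 pathway lists, on the vertical axis, with red points for genes that rose, blue points for genes that fell, grey points for genes that did not pass, and horizontal lines at the medians over all tested genes of each list. The medians run from -0.10 for the glycolytic genes to 0.48 for the 9 genes.

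For each of the 6 genes that passed, the other genes tested were ranked by how closely their level followed it over the 6 arrays, as the root-mean-square difference of log2 levels after each gene was centred on its own mean. Nearest to Ndrg1 were Aen (0.063) and Rnd3 (0.069). Nearest to Epas1 were Phlda1 (0.054) and Neurod4 (0.055), and nearest to Bhlhe40 were Slc3a2 (0.030) and Plek (0.062). Ankrd37 was most like Nuak2 (0.055) and Dot1l (0.085), and Ddit4 most like Cyrib (0.027) and Usp16 (0.032). Bnip3l was most like Cenpl (0.020) and Fam20c (0.024). Neurod4 and Nuak2 were well above background on 1 sham array each, with log2 fold changes of -0.47 and 0.03 under normexp, so their ranks rest on sham values near background. The search ran over 10989 other genes for each, on 6 arrays that fall into 2 groups.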

How the data were processed

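Per the labels, total RNA of each sample was labelled with Cy3 and hybridised to 1-colour Agilent arrays. Spot signals are intensity values as deposited, made with Agilent Feature Extraction 11.0.1.1 per the submitters' processing notes. The authors also deposited a table of log2 values, used only as an alternative. Control spots and spots with feature outlier flags were left out. Of 24684 probes, 24614 had a usable spot on every array, and a probe was tested when either group had it well above background throughout (17930 probes). Log2 signals minus each array's 75th percentile were compared by limma 3.58.1 in R 4.3.3 (two-sided, Benjamini-Hochberg over all probes tested, threshold 0.05). The fit was tested on simulated data. Arrays are taken as separate animals per the labels, and p-values measure the spread between these 3 and 3 arrays, whose number limits the precision.

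Probes were named through RefSeq accessions, and a gene was represented by its brightest probe. Sets of genes were counted, with no set test. The genes named are all those listed that had a probe, up to 3 passing genes per direction from each pathway list (1 of them, counted in its list, is not reported here), a few regulators and targets whatever their result (Ramp2, Ramp3, Calcrl, Epo, Car9 and single cell type markers were added after their values were seen), and the 2 nearest profiles of each gene that passed. The genes and lists were chosen with earlier results of these data known. Alternatives were quantile and median scaling, normexp background (offset 50, on the median signal, since the files hold no mean signal), other filters, the authors' table, scan as a block, and each array left out. The protein sequences of HIF subunits were not used here. Python 3.11.15 was used for counting and plotting.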

Additional observations from a re-analysis of the deposited data

How the results depend on the processing

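Of the 9 genes, 6 passed. Between 5 and 7 passed with quantile normalization, median scaling, the authors' table, or only probes well above background on all arrays. The authors' table gave fold changes close to those of quantile normalization for these genes, so it adds little as a separate check. Taking the mean of a gene's probes could not change their levels, since each had 1 probe. With no filter on dim probes 3 of the 9 genes passed, with normexp 2, and with 1 array left out 1 to 6. With scan as a block and M25 left out, a setting added after seeing the data, limma called 0 of the 9 (4 at an unadjusted p below 0.05). All probes passing numbered 3460, against 1826 with no filter, 76 with scan as a block and M25 left out, and 509 to 7308 with 1 array left out. The subunits and regulators had 3 calls, against 1 with no filter, 1 with normexp, 0 with scan as a block and M25 left out (3 unadjusted), and 0 to 7 with 1 array left out. The glycolytic genes had 4 calls, against 0 with scan as a block and M25 left out (4 unadjusted) and 1 to 8 with 1 array left out. The secreted and vascular genes had 10 calls, against 1 with scan as a block and M25 left out and 3 to 11 with 1 array left out. The intracellular genes had 8 calls, against 5 with median scaling, 5 with quantile normalization, 3 with no filter, 1 with scan as a block and M25 left out, and 1 to 9 with 1 array left out. Leaving out M25 gave the fewest calls over all probes, and leaving out C4 the most. No direction of the 9 genes reversed under these alternatives, apart from that of Egln3 relative to the median of all probes under normexp. The causes of these shifts were not tested. No paired analysis was possible because the labels of the groups share no replicate numbers.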
